A study of Mus musculus with 60 samples.

Results

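The genes described here were 10 adhesion receptors: the integrin subunits Itga2, Itga5, Itga6, Itgav, Itgb1, Itgb3 and Itgb5, and the receptors Vcam1, L1cam and Cd44. They were taken by name, with no cut on a measured value. Earlier results of these data were known when they were chosen. All 10 were found among the 47729 mouse genes of the count table. The cells were PyMT-Bo1, a mammary tumor line of C57BL6 origin driven by the polyoma middle T oncogene and carrying lentiviral luciferase, GFP, mApple and Thy1.1 markers. They had been stained with DiD, a membrane dye that is diluted each time a cell divides, and given by intracardiac injection to wild-type C57BL6 female mice aged 8 to 10 weeks. At day 11 the femurs and tibias of 5 mice were pooled and single cells were sorted as dormant (DiD+, label High, 32 cells) or proliferative (DiD-, label Low, 28 cells), after enrichment for Thy1.1 and exclusion of CD45.

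Both groups came from the same injected line, the same mice and the same day, and were separated by the DiD gate. No mouse was named for a cell, so each group was 1 pooled sample. Cells of such a pool are not replicates of a condition, and no test was made and no p-value is given. Intervals printed with levels cover counting error only.

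Integrins are receptors built from an alpha and a beta subunit, and the pairing sets what the receptor binds: collagens, laminins, fibronectin or other matrix proteins. Inside the cell the beta tail binds talin and kindlin, and through them the actin cytoskeleton. Vcam1 is a cell-surface ligand for integrin alpha4beta1, L1cam is a neural adhesion molecule of the immunoglobulin family, and Cd44 is the main receptor for hyaluronan. In bone, receptors of these families are known for attaching tumor and blood-forming cells to the marrow niche.

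The library of a cell held between 2276789 and 7794219 counts in DiD+ cells and between 2624405 and 6199108 in DiD- cells, with a median of 8283 and 8424.5 genes with a count. Levels are given in CPM (counts per 1000000 counts of mouse genes), either in 1 cell or after summing the counts of a group. All 60 wells held Krt8 and 58 held Krt18, keratins of luminal epithelium, while Epcam, Krt19, Krt7, Cldn3 and Cldn4 had no count in any well and Cdh1 had 1 count in 1 well. Macrophage markers (at least 7 of 13 genes with 10 or more counts) were found in 6 DiD+ wells and 1 DiD- well, although the sort excluded CD45. The summed level of the 13 genes was 1422 to 19351 CPM in those 6 DiD+ wells, 1703 CPM in the DiD- well, at most 177 CPM in the other 26 DiD+ wells and at most 127 CPM in the other 27 DiD- wells. The same 6 wells held Krt8 at 1689 to 2951 CPM, and 5 of them held luciferase counts. Ptprc, which encodes CD45, had a count in 5 of them and in 1 of the other 26 DiD+ wells. In the 5 it was low outside 2 wells: 121 counts in cell 21, 11 in cell 19, and 1 or 2 in cells 24, 30 and 37. The well without luciferase counts, cell 30, also had none of GFP or mApple. By the same rule for 9 further lists, erythroid markers were found in 3 DiD+ and 3 DiD- wells and marrow stromal markers in 3 and 4. Neutrophil markers were found in none and 1, and those of megakaryocytes, endothelium, osteoblasts, osteoclasts, T or NK cells and B cells in none. The stromal rule asked for 4 of 8 genes, and the median well of each group held 3, so it hardly set those wells apart. Values with and without the 7 wells are given wherever they part by more than 1.5 times.

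Of the 10 receptors, 8 reached 1 CPM in a group. Itgb3 had no count in any of the 60 cells, and L1cam had 13 counts, all in 1 DiD- cell. Over the 8, the log2 ratio of summed CPM, DiD+ over DiD- with 1 CPM added to each, had a median of -0.15, beside 0.04 over the 12432 genes that reached 1 CPM in either group. The laminin receptor subunit Itga6 and the fibronectin receptor subunit Itga5 were lower in DiD+ cells, by log2 ratios of -0.87 and -0.77. Itgb1, Itgav, Itgb5 and Cd44 lay within 0.25 of 0. Vcam1 was the 1 receptor at least 2-fold higher in DiD+ (12.1% of all genes were), and none was at least 2-fold lower (4.86% of all genes were). The Vcam1 ratio turned below 0 when the 7 wells with macrophage markers were left out.

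**Figure D1:**
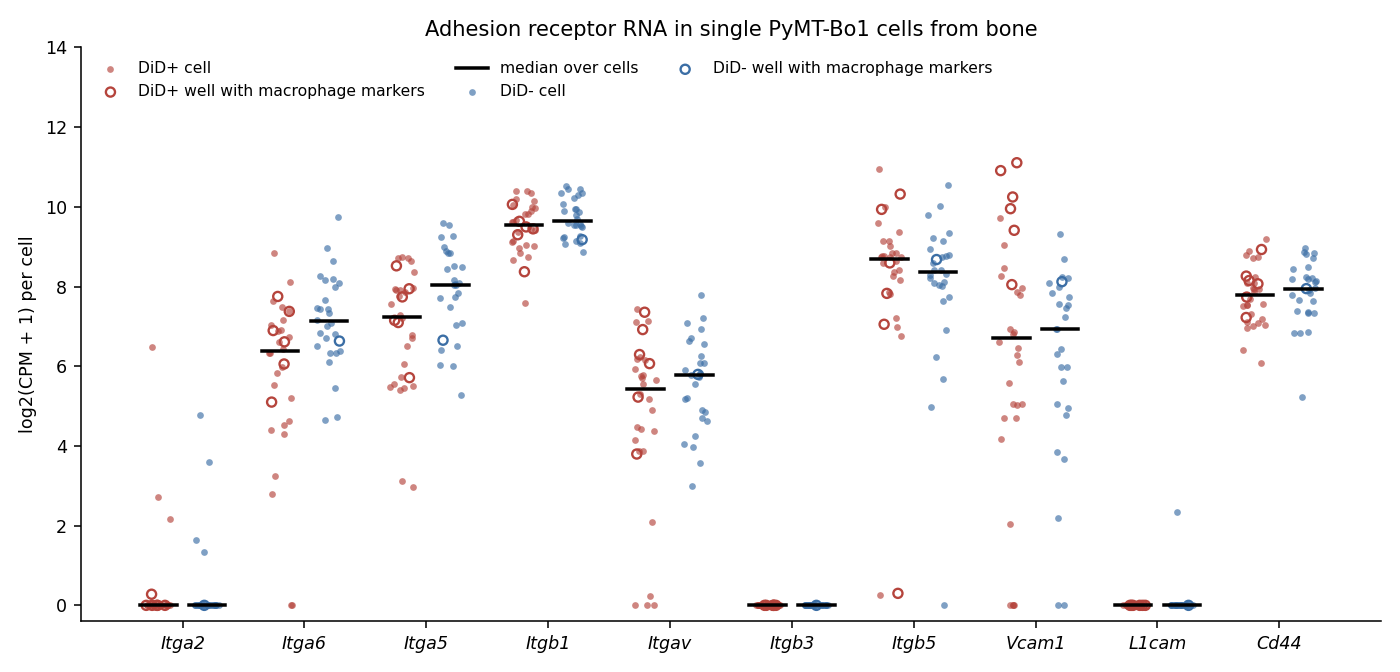
Level of each receptor in each cell, as log2(CPM + 1), for 32 DiD+ cells (red, left of each pair) and 28 DiD- cells (blue, right), with black bars at the medians and open circles for wells with macrophage markers. Itgb1 and Cd44 lay in narrow bands in all cells, Itgb3 was at 0 throughout, and the highest Vcam1 values were open circles.

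The fibronectin receptor alpha5beta1 was the receptor whose subunits were both found in all 60 cells. Itgb1 (chromosome 8, 128685654 to 128733200, plus strand, GRCm38) encodes the beta1 chain, the common partner of most alpha subunits. It was the most abundant integrin subunit per length, at 192 CPM per kb of exon in DiD+ and 224 in DiD- cells. Its level was 782 CPM (777 to 786) in the summed DiD+ counts and 916 CPM (911 to 921) in the DiD- counts. Single DiD+ cells ranged from 191 to 1355 CPM with a median of 751, and single DiD- cells from 464 to 1469 CPM with a median of 798. The 2 ranges overlapped almost throughout, and in 60.04% of the 896 pairs of 1 DiD+ and 1 DiD- cell the DiD- cell was the higher.

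Itga5 (chromosome 15, 103344286 to 103366763, minus strand) encodes the alpha5 chain, which pairs with beta1 alone. The summed level was 186 CPM (184 to 189) in DiD+ and 318 CPM (315 to 321) in the DiD- cells, a level 1.70-fold lower in DiD+. DiD+ cells ranged from 6.83 to 425 CPM around a median of 150, and DiD- cells from 38.1 to 776 CPM around a median of 264. The groups overlapped, but 8 DiD- cells lay above the highest DiD+ cell, and the DiD- cell was the higher in 68.97% of pairs. Among all genes that reached 1 CPM, 8.17% had a lower ratio. The ratio kept its sign with any 1 of the 60 cells left out (-0.87 to -0.68) and without the 7 wells with macrophage markers (-0.81).

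The alpha5 and beta1 genes are shown here by the 250 bases before their start sites, because their products form 1 receptor while their RNA ratios parted. The sequences are from RefSeq, build GRCm38.p6, written 5′ to 3′ on the strand of the gene, with the GC box GGGCGG (searched on both strands) in capitals.
Itga5, chr15:103366792-103367041, minus strand: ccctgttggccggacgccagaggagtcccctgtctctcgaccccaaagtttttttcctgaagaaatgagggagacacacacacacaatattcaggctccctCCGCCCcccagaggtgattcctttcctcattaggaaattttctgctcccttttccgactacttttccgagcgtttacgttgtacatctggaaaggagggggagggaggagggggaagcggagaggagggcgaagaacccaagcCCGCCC
Itgb1, chr8:128685404-128685653, plus strand: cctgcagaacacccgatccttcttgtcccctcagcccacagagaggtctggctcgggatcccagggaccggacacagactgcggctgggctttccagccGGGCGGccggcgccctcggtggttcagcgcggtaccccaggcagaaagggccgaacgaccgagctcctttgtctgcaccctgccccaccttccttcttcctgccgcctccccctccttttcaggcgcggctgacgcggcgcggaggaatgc
The Itga5 window held 2 GC boxes and 11 CG dinucleotides, and the Itgb1 window held 1 GC box and 21 CG dinucleotides. Over 32851 RefSeq promoter windows of the same length, 32.7% held a GC box and the median number of CG dinucleotides was 6. TATAAA, found in 12.4% of windows, was in neither. The AP-1 site TGANTCA, found in 6.75% of windows, was in neither. The NF-kB site GGGNNTTCC, found in 4.98% of windows, was in the Itgb1 window with 1 match and not in the Itga5 window. Matches of this kind describe the letters of the window and say nothing of what binds there.

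Itga6 (chromosome 2, 71745616 to 71858416, plus strand) encodes the alpha6 chain, which with beta1 or beta4 binds laminins. Of the 8 receptors it had the lowest ratio, with 103 CPM (101 to 104) in DiD+ and 189 CPM (186 to 191) in the DiD- cells. In DiD+ it was absent from 2 cells, rose to 461 CPM in cell 23 and had a median of 82.8 CPM. In DiD- it was found in all 28 cells, from 23.97 to 861 CPM, with a median of 139 CPM. The DiD- cell was the higher in 70.98% of pairs, the largest such share among the 10. Size differed with the run of cell numbers in the labels: among cells 17 to 46 18 DiD+ cells had 112 CPM and 12 DiD- cells had 146 CPM (log2 ratio -0.38), and among cells 63 to 92 14 DiD+ cells had 89.5 CPM and 16 DiD- cells had 224 CPM (-1.32). Itga5 went the other way, with -1.07 in the first run and -0.44 in the second. What the numbers stand for is not given in the labels.

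The beta4 partner of alpha6, Itgb4, which anchors hemidesmosomes, had 96.9 CPM in DiD+ and 134 in DiD- cells (log2 ratio -0.46). With at least 10 counts of each gene taken as present, 28 of 32 DiD+ and 27 of 28 DiD- cells held both Itga6 and Itgb4, and 30 and 28 held both Itga6 and Itgb1. Taken alone, Itga6 was present in 30 and 28 cells, Itgb4 in 28 and 27, and Itgb1 in 32 and 28. Each pair count was thus that of its scarcer gene.

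Itga2 (chromosome 13, 114833081 to 114932100, minus strand) encodes the alpha2 chain of a collagen receptor. It was found in 4 of 32 DiD+ cells (12.5%, exact binomial interval 3.51% to 29%) and 4 of 28 DiD- cells (14.3%, 4.03% to 32.7%). The DiD+ values were 88.1 CPM in cell 36, 5.56 in cell 87, 3.50 in cell 42 and 0.213 in cell 21. The DiD- values were 26.5 CPM in cell 28, 11.02 in cell 78, 2.13 in cell 79 and 1.51 in cell 90. Cell 36 held 91.3% of the DiD+ counts, and the summed log2 ratio of 0.59 became -1.14 without that cell and 1.499 without cell 28. No direction is given for Itga2, because 1 cell decided it.

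**Figure D2:**
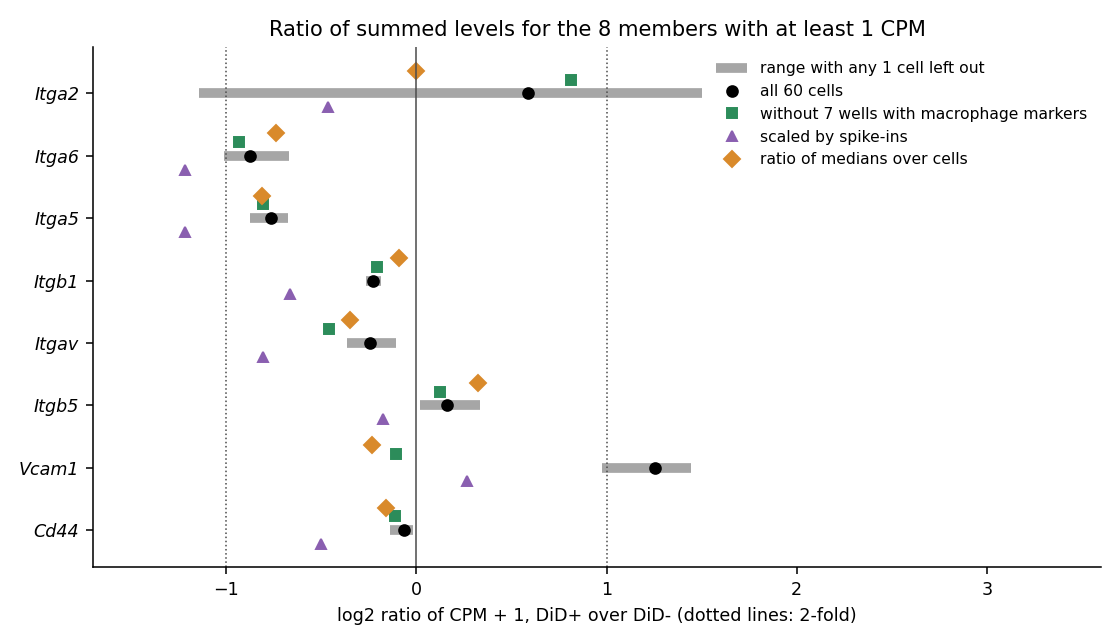
Log2 ratio of summed CPM + 1, DiD+ over DiD-, for the 8 receptors with at least 1 CPM (black circles), with grey bars for the range when any 1 cell is left out and other symbols for the same ratio without the 7 wells with macrophage markers, after scaling by spike-ins, and between medians over cells. Itga5 and Itga6 stayed below 0 under each of these, while Vcam1 moved from 1.26 to -0.11 without the 7 wells and Itga2 spanned -1.14 to 1.499.

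The alpha-v receptors bind vitronectin, osteopontin and other proteins that carry the RGD motif. Itgav (chromosome 2, 83724397 to 83806916, plus strand) encodes their common alpha chain and was sparse per length, at 4.94 CPM per kb in DiD+ and 5.86 in DiD- cells. Its summed level was 53.1 CPM (51.9 to 54.3) in DiD+ and 62.96 CPM (61.5 to 64.4) in the DiD- cells. DiD+ cells ranged from 0 to 172 CPM with a median of 42.5 and 3 cells at 0, and DiD- cells from 7.03 to 220 CPM with a median of 54.3. The ranges overlapped, and the DiD- cell was the higher in 58.1% of pairs. The log2 ratio was -0.24 in all cells and -0.46 without the 7 wells with macrophage markers, which held 30.99% of the DiD+ counts.

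Itgb5 (chromosome 16, 33829665 to 33949338, plus strand), whose beta5 chain pairs with alpha-v, was the second most abundant subunit per length. Its level was 456 CPM (452 to 459) in DiD+ and 407 CPM (404 to 411) in the DiD- cells. Single cells ranged from 0.202 to 1972 CPM in DiD+, with a median of 411, and from 0 to 1496 CPM in DiD-, with a median of 328. The highest values were in DiD+ cell 70 and DiD- cell 34, and the DiD+ cell was the higher in 56.0% of pairs. The log2 ratio was 0.16 for all cells, between 0.02 and 0.33 with any 1 cell left out, and -0.17 after scaling by spike-ins. That scaling moved the median of all genes from 0.04 to -0.34, and Itgb5 lay above that median under both.

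Itgb3 (chromosome 11, 104608000 to 104670476, plus strand) encodes the beta3 chain of the vitronectin receptor that osteoclasts and platelets carry. It had no count in 32 DiD+ and 28 DiD- cells, where 3 counts would have been 0.0205 and 0.0251 CPM. For the share of cells, 0 of 32 allows up to 10.9% and 0 of 28 up to 12.3% (exact binomial bounds). Of the other beta chains that pair with alpha-v, Itgb6 also had no count, and Itgb8 reached 10 counts in 2 DiD+ and 3 DiD- cells. At 10 counts or more of both genes, 27 DiD+ and 27 DiD- cells held Itgav with Itgb5, 28 and 28 held Itgav with Itgb1, 1 and 3 held Itgav with Itgb8, and none held Itgav with Itgb3 or Itgb6. Taken alone, Itgav reached 10 counts in 28 DiD+ and 28 DiD- cells, Itgb1 in 32 and 28, and Itgb5 in 30 and 27. With these beta chains in nearly all cells, the pair counts follow from the single genes and show no preference in pairing.

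Vcam1 (chromosome 3, 116109949 to 116129688, minus strand) had the widest range in CPM of the 10 receptors in DiD+ cells. In DiD- cells Itgb5 ranged wider, up to 1496 CPM. Itgb5 also ranged wider in DiD+ wells without macrophage markers, up to 1972 CPM. The summed level was 352 CPM (349 to 355) in DiD+ and 147 CPM (145 to 149) in the DiD- cells, which is 2.40-fold higher in DiD+. The medians over cells went the other way, with 103 CPM in DiD+ and 121 in DiD- cells, and the DiD+ cell was the higher in 52.7% of pairs. DiD+ cells spanned 0 to 2202 CPM and DiD- cells 0 to 636 CPM. A count was found in 28 of 32 DiD+ cells (87.5%, 71% to 96.5%) and 26 of 28 DiD- cells (92.9%, 76.5% to 99.1%). Of the 6 DiD+ cells above every DiD- cell, 5 were wells with macrophage markers: cell 21 at 2202 CPM, cell 19 at 1920, cell 37 at 1213, cell 24 at 990 and cell 88 at 679. The other was cell 41, at 837 CPM.

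Wells with macrophage markers held 69.7% of the DiD+ Vcam1 counts and 4.35% of the DiD- counts. In the other 26 DiD+ wells the summed level was 133 CPM and the median 72.1 CPM, against 144 CPM and 121 CPM in the other 27 DiD- wells. The log2 ratio was 1.26 with all 60 cells and -0.11 without the 7 wells, so the direction of the ratio rested on them. Vcam1 was still found outside those wells, in 22 of 26 DiD+ cells with up to 837 CPM. In the run of cells 17 to 46, which holds 5 of the 7 wells, the levels were 481 CPM for DiD+ and 162 CPM for DiD- (log2 ratio 1.56), and among cells 63 to 92 they were 169 and 134 CPM (0.33). Itga4, the alpha chain of the integrin that binds Vcam1, had counts in 1 cell, DiD+ cell 24, which was among the wells with macrophage markers.

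**Figure D3:**
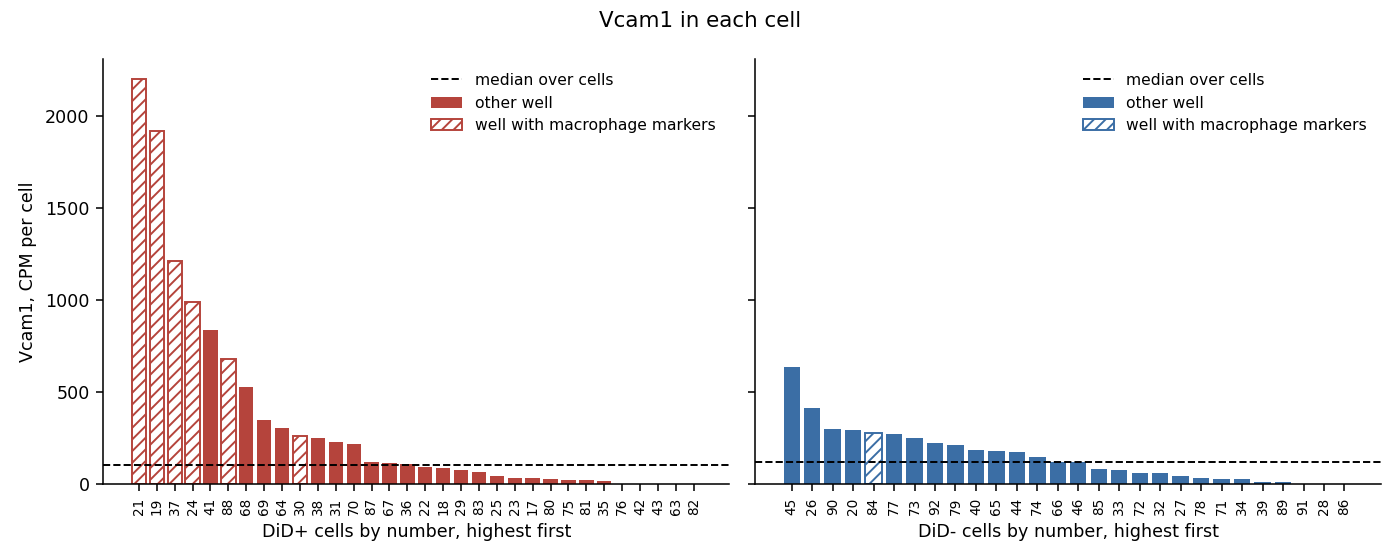
Vcam1 in CPM for each DiD+ cell (left) and each DiD- cell (right), ordered from the highest, with hatched bars for wells with macrophage markers and a dashed line at the median over cells (103 CPM and 121 CPM). The 4 highest DiD+ bars, from 990 to 2202 CPM, are hatched, and the solid bars reach 837 CPM in DiD+ and 636 CPM in DiD-.

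L1cam (chromosome X, 73853778 to 73896105, minus strand) had no count in DiD+ cells and 13 counts, 4.07 CPM, in DiD- cell 74. With 0 of 32 DiD+ cells allowing a share of up to 10.9%, no difference was detectable.

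Cd44 (chromosome 2, 102811141 to 102901665, minus strand) was found in all 60 cells, at 253 CPM (250.1 to 255) in DiD+ and 264 CPM (261 to 267) in the DiD- cells. DiD+ cells ranged from 67.1 to 582 CPM with a median of 221, and DiD- cells from 36.2 to 499 CPM with a median of 246. The ranges overlapped almost fully, and the DiD- cell was the higher in 55.7% of pairs. The log2 ratio was -0.06, which was near the 0.04 median of all genes, and it was -0.50 after scaling by spike-ins, under which the median of all genes was -0.34.

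Ordered per length of exon in DiD+ cells, the members ran from Itgb1 (192 CPM per kb) and Itgb5 (128) through Vcam1 (39.7), Itga5 (37.8) and Cd44 (37.3) to Itga6 (11.4), Itgav (4.94) and Itga2 (0.463), with L1cam and Itgb3 at 0. In DiD- cells Itga5 (64.4) and Cd44 (38.99) stood above Itga6 (20.9) and Vcam1 (16.5). The neighbours Vcam1, Itga5 and Cd44 differed in DiD+ by far less than each varied from cell to cell. Without the wells with macrophage markers Vcam1 stood at 15.02 CPM per kb in DiD+, below Itga5 and Cd44. Within single cells, Itga5 was the most abundant of all alpha chains per length in 21 of 32 DiD+ and 18 of 28 DiD- cells, and Itga3 in 10 and 8. Of the beta chains other than Itgb1, Itgb5 was the most abundant in 27 DiD+ and 20 DiD- cells, and Itgb7 in 3 and 7. After thinning each cell to 2200000 counts, a median of 9 of the 27 integrin subunits had 10 or more counts in DiD+ cells (4 to 12) and also 9 in DiD- cells (6 to 11).

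The other 20 integrin subunits were examined beside the members, and 11 of them reached 1 CPM. Their median log2 ratio was 0.21 with all cells and -0.47 without the 7 wells with macrophage markers. At least 2-fold higher in DiD+ were 4, named here after their values were seen: Itgad and Itgam, leukocyte integrins with 99.9% and 100% of their DiD+ counts in wells with macrophage markers and log2 ratios of 0.02 and 0 without them, and Itga1 and Itgae, found in 4 and 2 DiD+ cells and in no DiD- cell. Itga1 and Itgae were low, at 4.44 and 1.22 CPM in DiD+. Cell 69 held 47.1% of the DiD+ Itga1 counts, and cell 23 held 96.6% of those of Itgae. Only Itgb7 was at least 2-fold lower. Of all genes, 12.1% were at least 2-fold higher in DiD+ and 4.86% at least 2-fold lower. Without the 7 wells the counts were 2 higher and 2 lower, with Itgb2 beside Itgb7 among the lower. The shares of all genes were then 10.4% and 5.71%. Itgb7, known as the beta chain of lymphocyte homing receptors, had 74.9 CPM in DiD+ and 185 in DiD- cells (log2 ratio -1.30, and -1.05 without the 7 wells). It was found in 16 of 32 DiD+ and 23 of 28 DiD- cells, with medians of 0.520 and 113 CPM. Its known partners were nearly absent: Itga4 was found in 1 cell and Itgae in 2 DiD+ cells.

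Of the remaining subunits with at least 10 CPM, Itga3, a laminin receptor chain, was lower in DiD+ (135 against 229 CPM, log2 ratio -0.76, DiD+ higher in 25.6% of pairs), as was Itga7, another laminin receptor chain (35.1 against 52.5 CPM, -0.57). Itgb2, the beta chain of leukocyte integrins, had 24.8 CPM in DiD+ and 16.5 in DiD- cells, and 75.5% of its DiD+ counts lay in wells with macrophage markers. Without those wells it was 7.61 against 16.9 CPM, so its direction turned. Itgad had 15.6 CPM in DiD+ and 1.58 in DiD- cells, and 0.0171 CPM and none without the 7 wells.

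**Figure D4:**
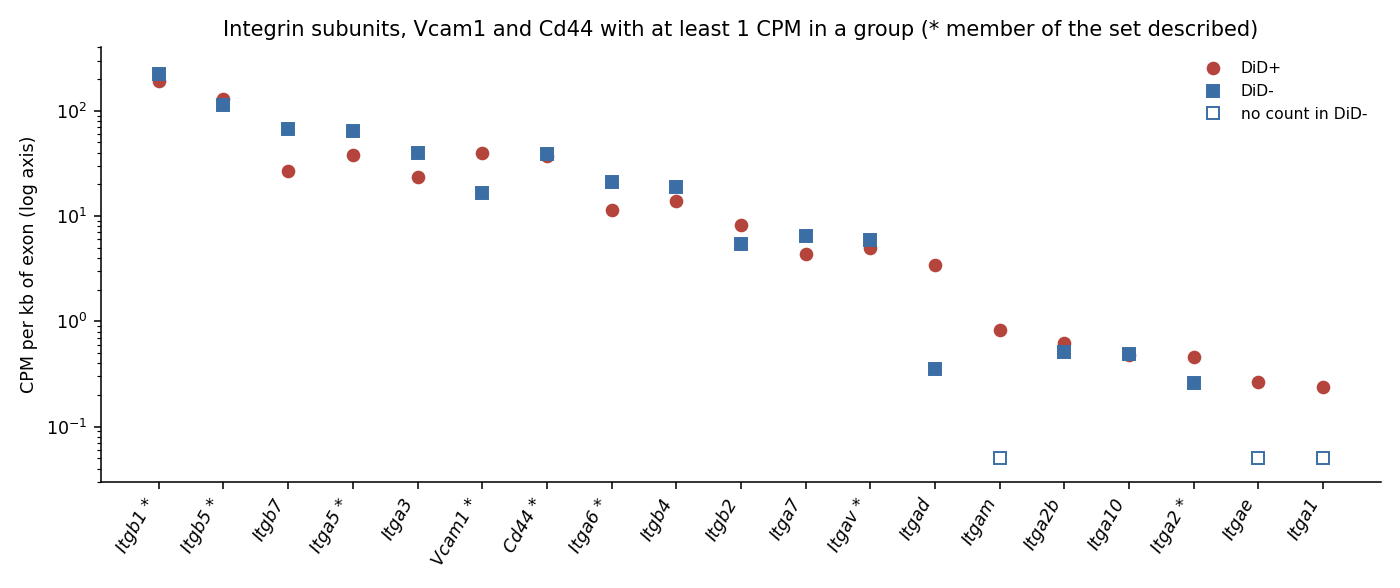
Summed level per kb of exon, on a log axis, of the integrin subunits, Vcam1 and Cd44 that reached 1 CPM, in DiD+ (red circles) and DiD- cells (blue squares), with members of the set starred and open squares at the foot for genes without a count in DiD-. Itgb1 and Itgb5 stood highest in both groups, and Itgb7, Itga5, Itga3 and Itga6 had their DiD- point above their DiD+ point.

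The genes that act with these receptors were listed by role. Of 25 integrin adaptors and activators, 24 reached 1 CPM, with a median log2 ratio of -0.04. Among the 24, 3 were at least 2-fold higher in DiD+ (Fermt3, Lims2 and Parvb), beside 12.1% of all genes. None was at least 2-fold lower, beside 4.86% of all genes. Lims2 had 2.90 against 0.74 CPM, found in 3 DiD+ cells and 1 DiD- cell, and Parvb had 7.26 against 3.11 CPM. Without the 7 wells 2 of 23 were higher (Lims2 and Tns1) and 0 lower, beside 10.4% and 5.71% of all genes. Fermt3, the kindlin of blood cells, had 21.8 CPM in DiD+ and 0.0418 in DiD- cells, and 99.7% of its DiD+ counts were in wells with macrophage markers. Outside those wells its log2 ratio was 0.05. Tns1, a tensin that links integrins to actin, had 23.1 against 11.5 CPM (0.94), and Parva, the alpha-parvin, 129 against 103 CPM (0.32). Lowest were Tns3, another tensin (10.6 against 18.7 CPM, -0.76), and the actin binders Actn4 (564 against 876 CPM, -0.63) and Flna (421 against 615 CPM, -0.55). For Actn4 the DiD+ cell was the higher in 20.4% of pairs, a smaller share than for any of the 10 receptors.

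Of 26 matrix ligands, 20 reached 1 CPM, with a median log2 ratio of 0.43. This median was 0.12 with a minimum of 10 CPM, 0.49 among cells 17 to 46 and -0.12 among cells 63 to 92. At least 2-fold higher in DiD+ were 7, beside 12.1% of all genes. Among these, Col1a1, Lama4 and Fbln5 reached 1 CPM in DiD+ only. Their DiD+ levels were 1.81, 2.24 and 2.53 CPM, from 3, 1 and 2 cells. At least 2-fold lower was 1 (Lama3, found only in DiD- cell 84, the DiD- well with macrophage markers), beside 4.86% of all genes. Without the 7 wells the counts were 7 and 0, beside 10.4% and 5.71% of all genes. The log2 ratio of Lama3 then went from -1.15 to 0. Col3a1, a fibrillar collagen, had 197 against 28.3 CPM (2.76), and Tnc, the matrix protein tenascin C, 15.7 against 2.90 CPM (2.10). These rested on few cells: cell 41 held 64.8% of the DiD+ Col3a1 counts, cell 31 held 71.3% of those of Tnc, and each gene had a median of 0 in both groups. Thbs1, thrombospondin 1, was found in 16 of 32 DiD+ and 8 of 28 DiD- cells, at 60.3 against 16.7 CPM (1.79). Lower were the laminin chains Lamb1 (153 against 255 CPM, -0.73) and Lamc1 (67.96 against 105 CPM, -0.62) and the basement membrane collagen Col4a2 (20.1 against 30.7 CPM, -0.59). The ligands of the fibronectin and alpha-v receptors are named after their values were seen. Fn1, fibronectin, had 2796 CPM in DiD+ and 1858 in DiD- cells (0.59), with medians of 2776 and 1519. Spp1, osteopontin, had 5682 and 2345 CPM (1.28), but its medians over cells were 2127 and 2122 CPM, and the DiD+ cell was the higher in 53.9% of pairs.

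Of 24 other adhesion receptors and tetraspanins, 17 reached 1 CPM, with a median log2 ratio of 0.08. Among the 17, 2 were at least 2-fold higher in DiD+ (Icam1 and Bcam), beside 12.1% of all genes. At least 2-fold lower was 1 (Pecam1), beside 4.86% of all genes. Without the 7 wells the counts were 1 (Mcam, found in 1 DiD+ and 1 DiD- cell) and 1 (Pecam1), beside 10.4% and 5.71%. Icam1, a ligand of leukocyte integrins, had 11.97 CPM in DiD+ and no count in DiD- cells, at least 477-fold higher against 3 counts over the DiD- group, with 99.7% of its DiD+ counts in wells with macrophage markers and a log2 ratio of 3.70 that became 0.07 without them. All counts of Bcam, a laminin-binding adhesion molecule, were in DiD+ cell 88, another of those wells, and its log2 ratio of 1.28 became 0. Ddr1, a collagen-binding receptor kinase, had 48.2 against 31.4 CPM (0.61), and the tetraspanin Cd82 had 208 against 169 CPM (0.30). Pecam1, an adhesion molecule of endothelium and blood cells, had 5.44 against 14.9 CPM (-1.30), N-cadherin, Cdh2, 60.7 against 109 CPM (-0.83), and the collagen-binding Ddr2 35.8 against 48.8 CPM (-0.44).

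Of 16 partners of Cd44 and L1cam, 15 reached 1 CPM, with a median log2 ratio of -0.16. Among the 15, 3 were at least 2-fold higher in DiD+ (Hyal1, Cemip and Ank1), beside 12.1% of all genes. None was at least 2-fold lower, beside 4.86% of all genes. Hyal1 had 8.76 against 2.34 CPM. Cemip had 1.07 against 0.0084 CPM, found in 4 DiD+ cells and 1 DiD- cell. Without the 7 wells 3 of 14 were higher (Hyal1, Cemip and Tnfaip6) and 0 lower, beside 10.4% and 5.71% of all genes. Cell 30, a well with macrophage and erythroid markers, held 90.2% of the DiD+ counts of Ank1, an ankyrin of red cells, whose log2 ratio went from 1.13 to 0.20 without the 7 wells. The hyaluronan synthase Has2 had 47.1 against 28.7 CPM (0.70), and Tnfaip6, which binds hyaluronan, 20.8 against 9.99 CPM (0.99). Tnfaip6 was found in 21 of 32 DiD+ and 10 of 28 DiD- cells. Nrp1, a co-receptor for semaphorins, had 18.5 against 15.2 CPM (0.26), and -0.40 without the wells with macrophage markers. Lowest were Hmmr, a hyaluronan receptor of the mitotic spindle (41.3 against 59.3 CPM, -0.51), and Msn and Ezr, which tie Cd44 to actin (788 against 1115 CPM, -0.50, and 273 against 366 CPM, -0.42).

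**Figure D5:**
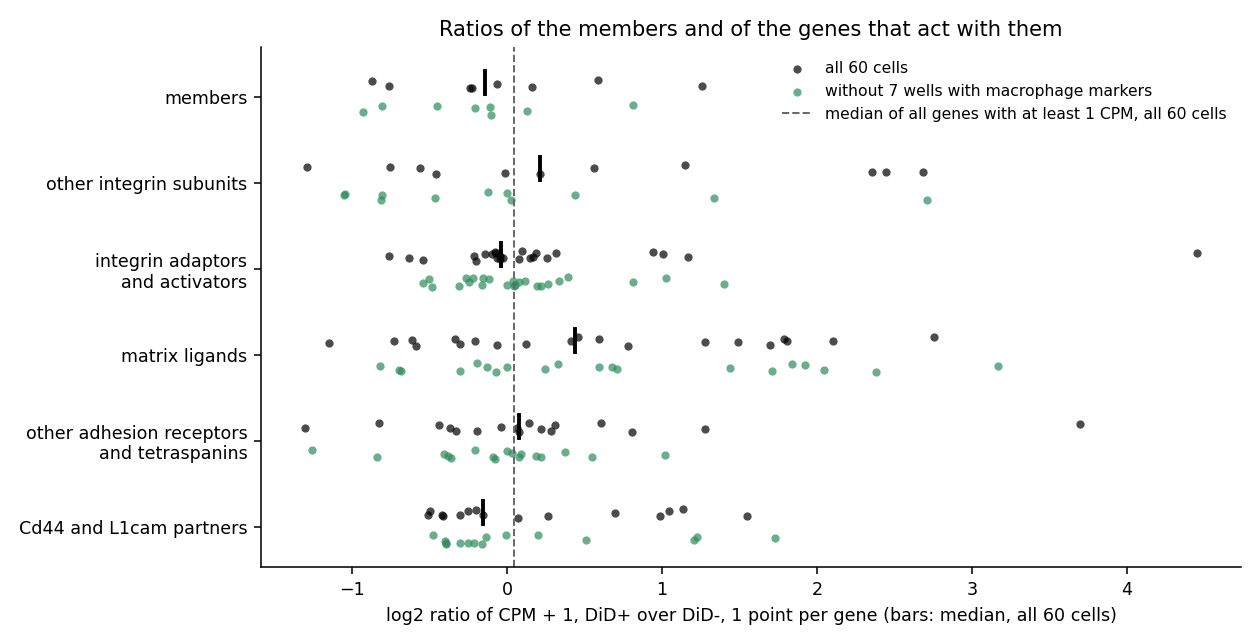
Log2 ratio of summed CPM + 1, DiD+ over DiD-, of each gene with at least 1 CPM, by list, with all 60 cells (black, bars at the medians) and without the 7 wells with macrophage markers (green); the dashed line is the median of all genes, 0.04. The points farthest right, Fermt3 at 4.45 and Icam1 at 3.70, moved to 0.05 and 0.07 without the 7 wells, while Col3a1 went from 2.76 to 3.17.

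Across the 60 cells the members varied largely apart from each other. Over the 21 pairs of the 7 members with at least 10 CPM, Spearman's rho of log2(CPM + 1) ran from -0.16 to 0.35 with a median of 0.11, and was highest for Itga5 with Itgb1 (0.35) and Itga6 with Itgb1 (0.33). All members of a cell share its library, and rho with the total counts ran from -0.09 to 0.21 and with the number of genes from -0.10 to 0.31. With the summed S phase genes, rho was 0.36 for Itga5 and -0.34 for Itgb5. The summed level of S phase and G2/M genes had a median of 2212 CPM in DiD+ and 7790 in DiD- cells, and its part in the Itga5 ratio was not tested.

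Among 8697 other genes with at least 10 CPM and a count in at least 10 cells, the 3 most like each member over the 60 cells were found by the same measure. They are the highest of 8697 values each, over cells of both groups together, and no level reached by chance was set. They were Dnajc10 (rho 0.60), Sec31a (0.57) and Ivns1abp (0.56) for Itgb1, and Msn (0.55), Ext1 (0.53) and Ddb1 (0.52) for Itga5. For Itga6 they were 1110004F10Rik (0.55), G3bp1 (0.54) and Galnt1 (0.52), and for Itgav Ubxn6 (0.54), Ppp2r3a (0.51) and Zswim3 (0.49). For Itgb5 they were Cnpy4 (0.60), Ccdc102a (0.57) and Pcolce (0.55), and for Cd44 Ccnd1 (0.51), Vbp1 (0.49) and Tomm34 (0.48). For Vcam1 they were Cyb5a (0.57), Cd53 (0.56) and Il18bp (0.52). Over the 53 wells without macrophage markers, the rho of Vcam1 with Cd53, a leukocyte tetraspanin, fell to 0.27 and with Il18bp to 0.29, while that with Cyb5a was 0.48. The genes listed for Itga5 and Itga6 were all lower in DiD+ too, with log2 ratios from -0.82 (G3bp1) to -0.30 (1110004F10Rik). The part of the group difference in their rho was not tested.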

How the data were processed

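Single PyMT-Bo1 cells, grouped by the DiD label, were the samples. Per the labels and methods, the authors trimmed reads, aligned them with STAR to GRCm38/mm10 plus spike-ins and transgenes, and deposited RSEM expected counts without normalization. A signal table normalized with BASiCS, which the authors deposited too, served as an alternative scaling. Versions of STAR and RSEM are not given in the sources used here, and the sequencer differs between labels and paper. Columns were matched by label, and 0 were left unused.

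Counts were rounded. Library totals held mouse genes only, and a group was the sum of its cells, as CPM. Log2 ratios used a pseudocount of 1 CPM, which understates changes of low genes. Exact Poisson and Clopper-Pearson intervals (95%, scipy 1.17.1) do not cover the spread between animals, and a count of 0 was limited by 3 counts over a group. Exon lengths and coordinates came from GENCODE M21 and promoters from RefSeq (7 of 10 members matched). The kit does not mark strand, so reads of genes antisense to Itgav and Vcam1 cannot be told apart from theirs. No doublet caller was run, and wells with host-cell markers were listed by rule.

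Named genes were every member, other integrin subunits with at least 10 CPM, the 3 highest and 3 lowest ratios of each further list at that level, and the 3 genes most like each member; exceptions are stated. The members, lists and rules were chosen with earlier results of these data known. The ratio of sums was checked on simulated counts. Alternatives were other scalings (mean over cells, BASiCS, spike-ins, TMM of edgeR 4.0.16 and size factors of DESeq2 1.42.0 on the 2 sums), pseudocounts of 0.1 and 10, subsets of cells and other minimum levels.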

Additional observations from a re-analysis of the deposited data

How the results depend on the processing

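The median log2 ratio of the members, -0.15, lay between -0.22 and -0.08 with any 1 cell left out. It was -0.58 when cells were scaled by their spike-ins, a scaling that moved the median of all genes from 0.04 to -0.34, and -0.23 with a minimum of 10 CPM, where Itga2 dropped out. The number of members at least 2-fold higher in DiD+, 1, ran from 0 to 2 with 1 cell left out (0 without DiD+ cell 19, 2 without DiD- cell 28, which brought in Itga2). It was 0 with spike-ins, 0 among cells 63 to 92 and 0 without the 7 wells with macrophage markers. The number at least 2-fold lower, 0, ran from 0 to 1 with 1 cell left out (Itga2 without DiD+ cell 36, Itga6 without DiD+ cell 23). It was 2 with spike-ins (Itga5 and Itga6), 1 among cells 17 to 46 (Itga5), 1 among cells 63 to 92 (Itga6), and 1 with a pseudocount of 0.1, where L1cam passed. L1cam, with 13 counts in 1 cell, lay below the minimum of 1 CPM asked of all genes. The Vcam1 ratio, 1.26, reversed to -0.14 without the 14 wells that met the rule for any host-cell list. It reversed to -0.11 without the 7 with macrophage markers, and to -0.23 between medians over cells. The last 2 settings were chosen after seeing the data. Itga5, Itga6, Itgb1 and Itgav stayed below 0 under all 12 other settings tried for each, and Cd44 under 11 (0.05 among cells 63 to 92). Among the 12, pseudocounts of 0.1 and 10 cannot change a sign. TMM and DESeq2 factors shifted all genes nearly alike, with medians of 0.02 and 0.01 in place of 0.04. A kept sign under these settings is therefore no evidence of stability. No paired analysis was possible because no mouse was named for a cell. Counts of Itgb3, L1cam and Itga2 came from no cell, 1 cell and 8 cells. With 1 pool of mice, spread between animals could not be measured.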
